A study of Mus musculus with 9 samples.

Results

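The 10 transcription factors described here, Tcf3, Ebf1, Foxo1, Pax5, Ikzf1, Ikzf3, Spib, Pou2f2, Bach2 and Bcl6, are genes that set up and keep B cell identity, and they were taken by gene symbol from a table of 55322 genes. All 10 were found, and all 10 passed the filter on low values in every comparison. RNA was sequenced from CD11b- B cells and CD11b+ B cells (termed M-B cells by the study) sorted from the bone marrow (BM) of wild-type C57BL/6J mice. These mice had been given LPS, the bacterial endotoxin, at 5 mg/kg 48 h earlier. The third group was F4/80+CD11b+ cells of the peritoneal cavity, here called PMs (peritoneal macrophages), of untreated wild-type mice. Each group had 3 libraries. Before the sort, BM cells bearing CD3, CD4, CD8, Gr-1, NK1.1 or TER119 were depleted, so both B cell groups share the LPS treatment and the depletion, and no group holds B cells from untreated mice. The PMs differ from the B cells in cell type, tissue and treatment together, and these cannot be told apart. The study shows the spread of these libraries as an SD, its convention for biological replicates. Neither the ages of the mice nor whether a library holds cells of 1 animal or of several is given in the sources used here, and p-values measure the spread between these libraries.

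These factors work as a network. E2A, the product of Tcf3, and Ebf1 switch on the early B cell program with Foxo1, and Pax5 then commits the cell to the B lineage by activating B cell receptor genes and silencing genes of other lineages. Ikzf1 (Ikaros) and Ikzf3 (Aiolos) are zinc finger regulators of lymphoid and late B cell genes, while Spib (an ETS factor close to PU.1) and Pou2f2 (Oct2) act in mature B cells. Bach2 and Bcl6 are repressors that hold back the plasma cell program, and loss of several of these factors is known to let B lineage cells take up other fates.

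The promoters of the 2 members with an unadjusted p under 0.05 between the B cell groups, Spib and Tcf3, are shown with that of Pax5, the commitment factor. The bases are those before the RefSeq transcription start on build GRCm38.p6, read 5′ to 3′ on the minus strand, on which all 3 genes lie. Capitals mark E-boxes (CANNTG, the kind of site that E2A binds) and, in Spib, overlapping TATATA matches.
Spib, chr7:44532072-44532321: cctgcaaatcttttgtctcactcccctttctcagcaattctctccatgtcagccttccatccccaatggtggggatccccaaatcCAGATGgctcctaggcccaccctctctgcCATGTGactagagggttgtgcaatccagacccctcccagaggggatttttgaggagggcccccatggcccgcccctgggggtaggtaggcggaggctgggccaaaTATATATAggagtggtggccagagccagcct
Tcf3, chr10:80433648-80433885: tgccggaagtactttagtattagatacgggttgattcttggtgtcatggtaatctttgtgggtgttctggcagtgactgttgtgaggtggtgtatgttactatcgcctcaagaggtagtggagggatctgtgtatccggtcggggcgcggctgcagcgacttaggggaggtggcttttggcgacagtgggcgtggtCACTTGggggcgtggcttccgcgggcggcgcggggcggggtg
Pax5, chr4:44710695-44710944: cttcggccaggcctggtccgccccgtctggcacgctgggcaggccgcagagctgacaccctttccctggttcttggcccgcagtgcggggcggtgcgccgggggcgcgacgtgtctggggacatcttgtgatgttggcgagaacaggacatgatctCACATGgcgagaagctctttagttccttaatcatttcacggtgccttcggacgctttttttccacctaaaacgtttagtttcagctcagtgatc

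For Tcf3, 12 bases next to the start were left out because they are annotated as exon in GENCODE M21. RefSeq gave 12 windows of 300 bases (250 before and 50 after the start) for 9 members, and none for Ikzf3. The Spib window held 2 CpG dinucleotides, against 25 for Tcf3, 23 for Pax5 and a median of 7 over all 32851 windows. It was also the only member window with TATATA, which 5.67% of all windows hold. An E-box was present in 7 of the 12 member windows and in 72.3% of all windows. The core of ETS sites, GAGGAA, was found for Bcl6, Ebf1 and Pou2f2 (28.3% of all windows), TGGGAA, bound by Ikaros, for Ebf1 (25.6%), and the palindromic site of Ebf1 itself for Foxo1 (0.904%). The octamer ATGCAAAT, the Foxo site TGTTTAC, the Bach site TGANTCA and TATAAA were in no member window, and in 1.74%, 3.65%, 7.81% and 13.6% of all windows. Both strands were searched, and such matches only describe the letters.

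On GRCm38 (GENCODE M21), Spib lies on chromosome 7 at 44525993 to 44532071 and Tcf3 on chromosome 10 at 80409514 to 80433647, and neither overlaps another annotated gene. Ebf1 (chromosome 11, 44617317 to 45008091), Pax5 (chromosome 4, 44524757 to 44710487), Ikzf1 (chromosome 11, 11685003 to 11772926) and Bach2 (chromosome 4, 32238804 to 32586108) are long genes, each with an annotated gene on the other strand inside it. In all, 7 of the 10 members overlap a gene on the other strand, and no source used here states a strand setting for the counting, so reads of these genes and their antisense partners may be mixed. The other members are Foxo1 (chromosome 3, 52268336 to 52353221), Ikzf3 (chromosome 11, 98464902 to 98546031), Pou2f2 (chromosome 7, 25087344 to 25179726) and Bcl6 (chromosome 16, 23965052 to 23988852).

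Values are FPKM, reads on a gene scaled by its exon length and by all reads on genes. The libraries held 18014658 to 35251215 reads on genes. In the B cells a member had between 1441 reads (Bcl6) and 82467 reads (Spib) in a library, and in the PMs between 37 (Ikzf3) and 2579 (Ikzf1).

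The libraries of a group were not alike in B cell precursor genes. Rag1, a recombinase subunit of pro-B and pre-B cells, had 0.0136, 0.0911 and 14.0 FPKM in CD11b- replicates 1, 2 and 3, and 0.0206, 0.0694 and 2.96 FPKM in the CD11b+ replicates. The surrogate light chain gene Vpreb1 had 0.125, 0.789 and 41.5 FPKM in the CD11b- libraries and 0.852, 1.37 and 12.3 FPKM in the CD11b+ libraries. The third library of both groups stood above its group in these genes, by more in CD11b- cells. Summed over 10 precursor markers, the level was 417, 414 and 1399 FPKM in CD11b- cells and 302, 344 and 633 FPKM in CD11b+ cells, and no marker was at 0 throughout a B cell group. Most of each sum was 1 gene, Vpreb3, with 407, 402 and 1188 FPKM in CD11b- and 295, 335 and 574 FPKM in CD11b+ cells. The third libraries of both groups carry the same number in the labels' descriptions, whose meaning is not stated. The differences of the members, and of the list genes given with a fold change, between the B cell groups are therefore also given without replicate 3 of both groups, an alternative chosen after seeing the data.

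**Figure D1:**
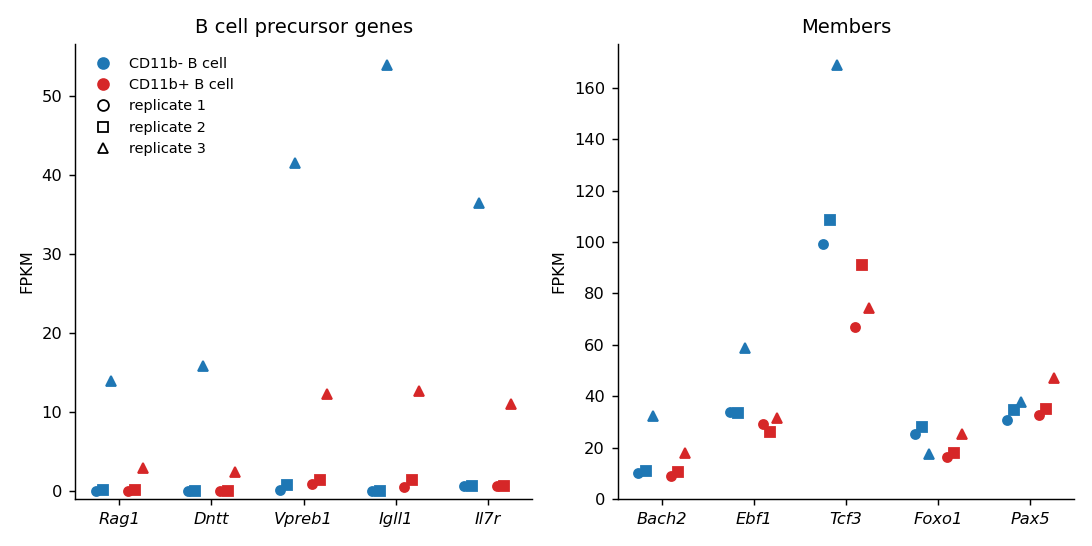
FPKM of 5 B cell precursor genes (left) and 5 members (right) in each B cell library, with color for the group and the shape of the point for the replicate. Replicate 3 stands high in the precursor genes in both groups, and CD11b- replicate 3 is the highest library for Bach2, Ebf1 and Tcf3.

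The label of the B cells was checked against 10 B cell markers. Their geometric mean (of FPKM + 1) was 640 to 679 in CD11b- cells and 536 to 595 in CD11b+ cells, against 16.9 to 24.0 in PMs. Markers of other cells were higher in the CD11b+ libraries. The sum of 12 neutrophil markers was 1.77 to 3.05 FPKM in CD11b- and 217 to 1583 FPKM in CD11b+ cells, the sum of 12 monocyte and macrophage markers 36.9 to 50.4 and 94.6 to 291 FPKM, that of 8 plasma cell markers 117 to 204 and 267 to 660 FPKM, and that of 7 erythroid markers 2.22 to 25.5 and 38.9 to 49.8 FPKM. None of these markers was at 0 in all CD11b+ libraries. Most of each monocyte and macrophage sum was Lyz2, with 30.1 to 42.2 FPKM in CD11b- and 65.4 to 261 FPKM in CD11b+ cells. In sums over 9 T cell markers the groups overlapped (12.1 to 20.0 and 13.8 to 22.8 FPKM), as in sums over 7 NK cell markers (0.752 to 2.24 and 0.849 to 5.96 FPKM). Most of each T cell sum was Lck, with 11.6 to 18.4 FPKM in CD11b- and 12.3 to 19.4 FPKM in CD11b+ cells.

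Both B cell groups expressed all 10 factors, in much the same order. Spib was by far the most abundant member, with a mean of 776 ± 109 FPKM (SD, n = 3) in CD11b- and 484 ± 47.0 FPKM (SD, n = 3) in CD11b+ cells, levels that 34 and 90 genes exceeded. It made up 66.6% to 69.6% of the summed FPKM of the members in CD11b- cells, 58.1% to 64.1% in CD11b+ cells and 6.17% to 14.1% in PMs, and these ranges did not overlap. Tcf3 and Ikzf1 came next in both B cell groups, with no overlap between neighbours in that order. In CD11b- cells Ebf1, Ikzf3 and Pax5 followed, with no gap between them, and then Foxo1, Pou2f2, Bach2 and Bcl6, which overlapped in turn. In CD11b+ cells Pax5 and Ikzf3 followed Ikzf1, and Ebf1 lay below them with no overlap, in a run with Pou2f2, Foxo1, Bach2 and Bcl6. In PMs the order was another: Ikzf1 and Tcf3 led, Pou2f2, Spib, Foxo1 and Bcl6 formed a middle group, and Bach2, Ikzf3, Pax5 and Ebf1 were lowest, the last with a mean of 0.328 ± 0.0720 FPKM (SD, n = 3).

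**Figure D2:**
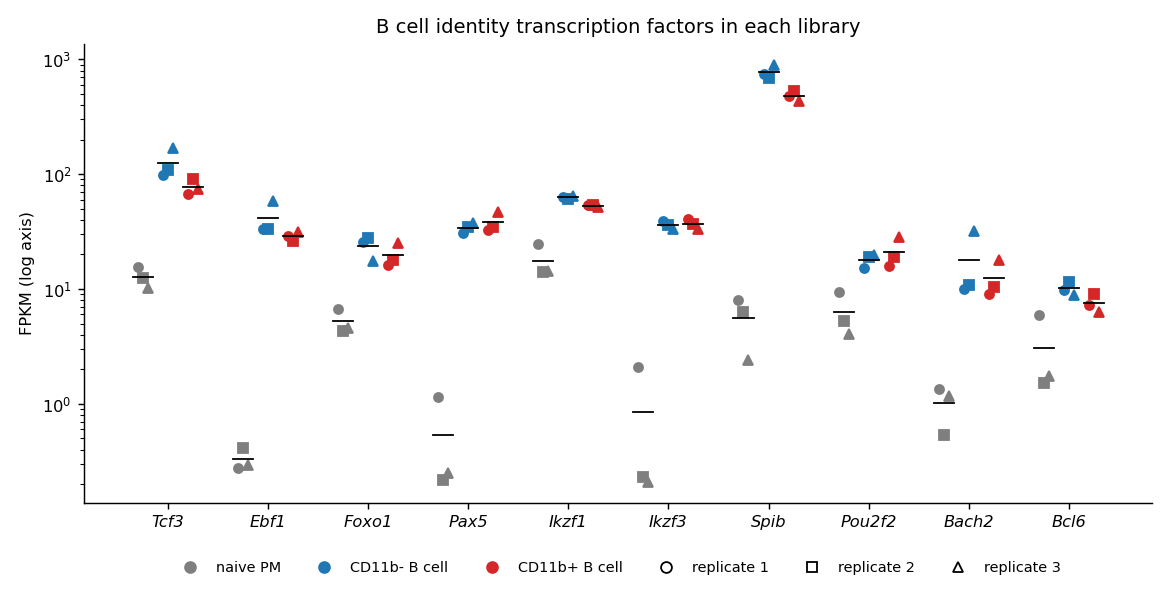
FPKM of each member in each of the 9 libraries, on a log axis, with color for the group, shape for the replicate and a bar at the group mean. All 10 members lie higher in the 6 B cell libraries than in the 3 PM libraries, and Spib stands above the other members in every B cell library.

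The first comparison asks whether CD11b+ B cells, which the study describes as B cells with myeloid markers, keep the expression of these factors. No member passed the test between CD11b+ and CD11b- B cells: limma called 0 of 10 lower and 0 of 10 higher, where it called 0% of 21778 genes lower and 0.0689% higher (15 genes). At an unadjusted p under 0.05, 2 members were lower (Tcf3 and Spib), against 3.04% of all genes, and none was higher, against 4.65%. On the reads, edgeR with a filter on low counts also called no member lower (0% of genes), without a filter it called Spib and Tcf3 (0.414% of 37400 genes were called lower), and DESeq2 called Spib (0.283% of 22602 genes). The CD11b+ libraries lay below the CD11b- libraries without overlap for 4 of 10 members (Tcf3, Ebf1, Ikzf1 and Spib), against 6.32% of all genes, and above them for none, against 8.63%. In bulk RNA, fewer cells of a type and less RNA per cell cannot be told apart.

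Spib had 747, 684 and 897 FPKM in the CD11b- libraries and 484, 532 and 438 FPKM in the CD11b+ libraries. The groups did not overlap, and the CD11b+ mean was 62.4% of the CD11b- mean. The log2 fold change was -0.67 ± 0.19 (SE), with a 95% interval of -1.11 to -0.24 and a limma adjusted p of 0.441 (0.00707 unadjusted). The exact permutation test gave 0.1, the smallest p that 3 against 3 libraries allow. DESeq2 gave an adjusted p of 0.0117 and edgeR with its filter 0.137. Without replicate 3 of both groups the log2 fold change was -0.50 ± 0.13 (SE; limma adjusted p = 0.303, 0.00856 unadjusted).

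Tcf3, which encodes the E proteins E12 and E47, had 99.2, 109 and 169 FPKM in CD11b- and 67.1, 90.9 and 74.3 FPKM in CD11b+ cells. Every CD11b+ library was below every CD11b- library, and the highest value was that of CD11b- replicate 3. The log2 fold change was -0.66 ± 0.22 (SE; 95% interval -1.17 to -0.15; limma adjusted p = 0.553). Without replicate 3 of both groups it was -0.41 ± 0.16 (SE; limma adjusted p = 0.523).

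Ebf1, the pioneer factor of the B lineage, had 33.6, 33.4 and 58.7 FPKM in CD11b- and 29.0, 26.2 and 31.5 FPKM in CD11b+ cells. The groups did not overlap, but the gap between them was narrow except for CD11b- replicate 3. The log2 fold change was -0.47 ± 0.22 (SE; 95% interval -0.99 to 0.04; limma adjusted p = 0.676), and -0.27 ± 0.11 without replicate 3 of both groups.

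Foxo1, which with Ebf1 drives early B cell genes and recombination, had 25.4, 28.0 and 17.6 FPKM in CD11b- and 16.3, 17.8 and 25.2 FPKM in CD11b+ cells. The groups overlapped, since the third library was the lowest of the CD11b- group and the highest of the CD11b+ group. The log2 fold change was -0.25 ± 0.22 (SE; 95% interval -0.76 to 0.27; limma adjusted p = 0.727). Without replicate 3 of both groups the remaining libraries did not overlap, and it was -0.62 ± 0.12 (SE; limma adjusted p = 0.177, 0.00234 unadjusted).

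The mean of Pax5 was not lower in CD11b+ cells, with 30.7, 34.4 and 37.7 FPKM in CD11b- and 32.5, 34.9 and 47.0 FPKM in CD11b+ cells. The groups overlapped, and CD11b+ replicate 3 was the highest library. The log2 fold change was 0.14 ± 0.17 (SE; 95% interval -0.26 to 0.53; limma adjusted p = 0.783), and 0.05 ± 0.11 without replicate 3 of both groups. Ikzf1, another member that restricts lineage choice, had the smallest spread of the 10 relative to its mean, with 62.8, 60.9 and 64.7 FPKM in CD11b- and 53.6, 53.8 and 51.7 FPKM in CD11b+ cells. These did not overlap, and the CD11b+ mean was 84.4% of the CD11b- mean (log2 fold change -0.24 ± 0.11, SE; 95% interval -0.50 to 0.02; limma adjusted p = 0.676). It was -0.20 ± 0.10 without replicate 3 of both groups.

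The other factors of mature B cells overlapped between the groups. Ikzf3 had 39.5, 35.9 and 33.6 FPKM in CD11b- and 40.4, 36.9 and 33.5 FPKM in CD11b+ cells (log2 fold change 0.02 ± 0.13, SE; 95% interval -0.28 to 0.33; limma adjusted p = 0.962). Pou2f2 had 15.2, 19.0 and 19.9 FPKM in CD11b- and 16.0, 19.0 and 28.1 FPKM in CD11b+ cells (0.18 ± 0.22, SE; 95% interval -0.32 to 0.69; limma adjusted p = 0.774). For Ikzf3 the interval was the narrowest of these members after Ikzf1, and for both genes it included 0. Ikzf3 was at 0.04 ± 0.11 and Pou2f2 at 0.03 ± 0.16 without replicate 3 of both groups.

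Of the repressors of the plasma cell program, Bach2 varied most between libraries, with 10.1, 10.9 and 32.2 FPKM in CD11b- and 9.08, 10.5 and 17.7 FPKM in CD11b+ cells. The third library was the highest of both groups, and the groups overlapped. The log2 fold change was -0.34 ± 0.43 (SE; 95% interval -1.33 to 0.66; limma adjusted p = 0.789), it was -0.09 ± 0.15 without replicate 3 of both groups, and it turned to 0.17 when only CD11b- replicate 3 was left out. Bcl6 had 9.88, 11.6 and 8.86 FPKM in CD11b- and 7.32, 9.11 and 6.31 FPKM in CD11b+ cells. The groups overlapped by CD11b+ replicate 2 alone, and the log2 fold change was -0.38 ± 0.19 (SE; 95% interval -0.82 to 0.06; limma adjusted p = 0.680), and -0.35 ± 0.17 without replicate 3 of both groups.

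Over the 10 members, 7 log2 fold changes were below 0, where 44.9% of all genes were, and their median was -0.29, against 0.03 over all genes tested. Without replicate 3 of both groups, 7 members were below 0 with a median of -0.24, no member was called, 4 (Tcf3, Ebf1, Foxo1 and Spib) were lower at an unadjusted p under 0.05 (3.45% of all genes), 6 members had lower CD11b+ libraries without overlap (16% of all genes) and none had higher ones (22.8%). The B cell markers themselves were lower in CD11b+ libraries, with 9 of 10 below 0 and a median log2 fold change of -0.19. When FPKM was scaled to the geometric mean of these markers, also chosen after seeing the data, the median of all genes moved to 0.15 and that of the members to -0.06, 6 of 10 members were below 0 and none had an unadjusted p under 0.05 (0.873% of all genes were lower at such a p). On that scale Spib was at -0.43 ± 0.19 (SE; 95% interval -0.87 to 0.02), Tcf3 at -0.42 ± 0.22 (-0.93 to 0.09), Ikzf1 at 0.00 ± 0.12 (-0.28 to 0.29) and Pax5 at 0.38 ± 0.18 (-0.05 to 0.80). The sums of neutrophil, monocyte, plasma cell and erythroid markers differ between the same groups, being higher in CD11b+ libraries. Their part in the differences of the members was not tested.

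**Figure D3:**
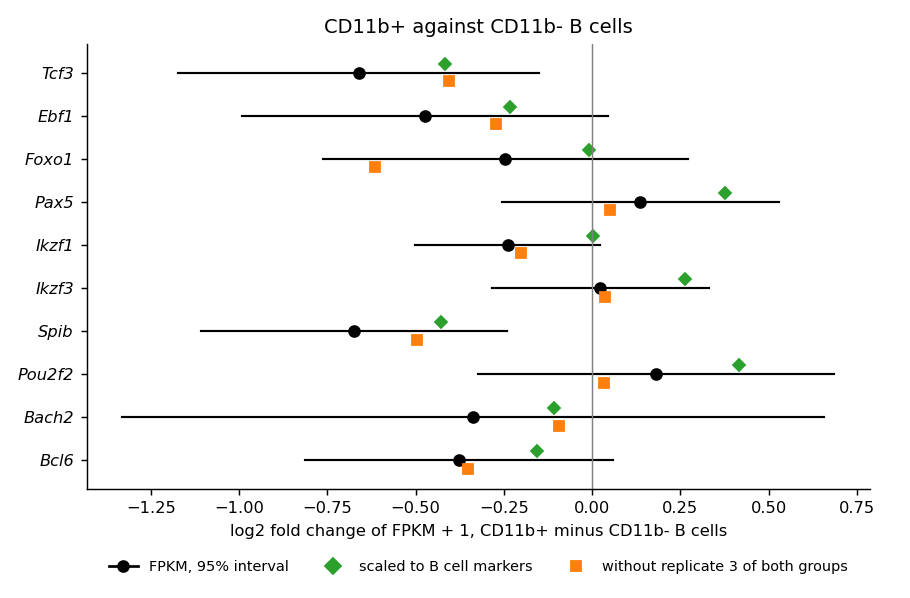
Log2 fold change of FPKM + 1 of each member, CD11b+ minus CD11b- B cells (3 libraries each). Black points with lines are the estimates and 95% intervals on FPKM, green diamonds the estimates after scaling to 10 B cell markers, and orange squares those without replicate 3 of both groups. The black intervals of Spib and Tcf3 do not reach 0, and after scaling Ikzf1 and Foxo1 sit close to 0.

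Genes that work with or under these factors were taken as 5 lists. None of them had a gene past the limma threshold between the B cell groups. With edgeR and its filter 1 gene passed (Csf1r, higher), where 0.269% of 15588 genes were called higher, and with DESeq2 10, where 1.45% of 22602 genes were called higher and 0.283% lower. Of these 10, 6 were repressed targets, 2 opposing regulators (Tbx21 among them) and 1 a paralog (Spic), all higher, 1 was a partner regulator (Lef1, lower) and 0 were activated targets. Of 18 partner regulators, 15 were below 0 (median log2 fold change -0.24), and 3 of these, Irf8, Ets1 and Lef1, had an unadjusted p under 0.05, where 44.9% of all genes were below 0 and 3.04% were lower at such a p. Lef1, a Wnt pathway factor of pro-B and pre-B cells, had 5.85, 5.03 and 7.11 FPKM in CD11b- and 2.65, 2.72 and 3.0 FPKM in CD11b+ cells, with no overlap (log2 fold change -0.88 ± 0.21, SE; limma adjusted p = 0.340; DESeq2 adjusted p = 5.5e-05). Sox4, which acts in B cell precursors, had 3.46, 4.45 and 9.47 FPKM in CD11b- and 0.881, 2.08 and 7.41 FPKM in CD11b+ cells, with the third library highest in both and the groups overlapping (-0.79 ± 0.56, SE; limma adjusted p = 0.727). Lef1 was at -0.80 ± 0.20 and Sox4 at -1.03 ± 0.31 without replicate 3 of both groups (limma adjusted p = 0.286 and 0.377).

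Of 19 genes that Pax5, Ebf1 or their partners are known to activate, 18 were below 0, with a median of -0.31, and 2, Cd72 and Nedd9, had an unadjusted p under 0.05, against the same 44.9% and 3.04% of all genes. The 2 with the largest change, Bst1 and Rag2, rested on CD11b- replicate 3. Bst1, a surface enzyme, had 1.10, 1.70 and 9.42 FPKM in CD11b- and 0.924, 1.35 and 0.727 FPKM in CD11b+ cells (log2 fold change -0.97 ± 0.56, SE; limma adjusted p = 0.699). Rag2, the partner of Rag1, had 0.00875, 0.0251 and 12.9 FPKM in CD11b- and 0.0298, 0.0781 and 1.09 FPKM in CD11b+ cells (-0.88 ± 0.94, SE; limma adjusted p = 0.743). With replicate 3 of both groups left out, Bst1 was at -0.17 ± 0.27, Rag2 was too low to be tested, and 11 of 17 tested activated targets were below 0, with a median of -0.17, and after scaling to B cell markers 12 of 19, with a median of -0.07. Of the partner regulators, 16 of 18 were below 0 (median -0.25) without replicate 3, and 9 of 18 after the scaling.

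Of 12 genes that these factors are known to repress, 11 were above 0, with a median of 0.70, and 7 had an unadjusted p under 0.05, where 55.1% of all genes were above 0 and 4.65% were higher at such a p. Jchain, which joins the chains of secreted IgM and IgA and is silenced by Pax5, had 6.18, 17.4 and 22.7 FPKM in CD11b- and 101, 83.9 and 449 FPKM in CD11b+ cells, with no overlap (log2 fold change 3.43 ± 0.66, SE; limma adjusted p = 0.204; DESeq2 adjusted p = 0.00511). Csf1r, the macrophage growth factor receptor, another gene silenced by Pax5, had 0.223, 0.174 and 0.130 FPKM in CD11b- and 3.56, 3.19 and 1.36 FPKM in CD11b+ cells, again without overlap (1.6 ± 0.30, SE; limma adjusted p = 0.179; edgeR adjusted p = 0.0169). In PMs, which use the gene, Csf1r had 160 to 210 FPKM. Of the 12 repressed targets, 6 (Csf1r, Ccr2, Jchain, Xbp1, Prdm1 and Sdc1) also stand in the lists of macrophage or plasma cell markers, the sums of which were higher in CD11b+ cells. With replicate 3 of both groups left out, 10 of 12 repressed targets were above 0 (median 0.86), and after scaling to B cell markers 11 of 12 (median 0.88). In the first of these, Jchain was at 3.02 ± 0.42 and Csf1r at 1.87 ± 0.23 (limma adjusted p = 0.0933 and 0.0745).

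Of 17 tested genes that oppose the B cell program, 12 were above 0 (median 0.21), and 4, Id2, Xbp1 and Tbx21 among them, had an unadjusted p under 0.05, against the same 55.1% and 4.65% of all genes. Without replicate 3 of both groups 11 of 17 were above 0 (median 0.27), and after scaling to B cell markers 14 of 17 (median 0.24). Tbx21 (T-bet), known from age-associated B cells, had 1.14, 0.841 and 0.627 FPKM in CD11b- and 3.28, 3.46 and 3.24 FPKM in CD11b+ cells (log2 fold change 1.22 ± 0.24, SE; limma adjusted p = 0.202; DESeq2 adjusted p = 5.27e-05). The B cell groups did not overlap, and without replicate 3 of both groups the log2 fold change was 1.14 ± 0.24 (limma adjusted p = 0.211). By quantitative PCR, another assay, the study reports that M-B cells lacked Tbx21, unlike age-associated B cells. It also found no CD11c on M-B cells. No age-associated B cells were sequenced here, so these FPKM values cannot be set against theirs. Chosen after its values were seen, Cebpa, the factor with which myeloid fate can be forced on B cells, had 0.00, 0.0217 and 0.0355 FPKM in CD11b- and 0.0517, 0.261 and 0.161 FPKM in CD11b+ cells, against 15.1 to 19.6 FPKM in PMs.

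Of the 25 paralogs of the members, 11 were expressed highly enough to be tested, and 9 of these were above 0 (median 0.16), against 55.1% of all genes. This tilt was lost without replicate 3 of both groups, where 6 of 12 tested paralogs were above 0 and 6 below (median 8e-04), and after scaling to B cell markers 10 of 11 were above 0 (median 0.33). Spic, the ETS factor closest to Spib and PU.1, had 0.523, 0.552 and 0.479 FPKM in CD11b- and 2.07, 1.38 and 2.18 FPKM in CD11b+ cells, without overlap (log2 fold change 0.91 ± 0.23, SE; limma adjusted p = 0.362; DESeq2 adjusted p = 0.000199). Tcf12, which encodes the E protein HEB, had 7.70, 5.46 and 9.82 FPKM in CD11b- and 5.23, 4.74 and 5.95 FPKM in CD11b+ cells, and the groups overlapped (-0.43 ± 0.23, SE; limma adjusted p = 0.686). Spic was at 0.82 ± 0.25 and Tcf12 at -0.33 ± 0.21 without replicate 3 of both groups (limma adjusted p = 0.381 and 0.731). Spic is on a far lower FPKM scale than Spib in both groups.

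**Figure D4:**
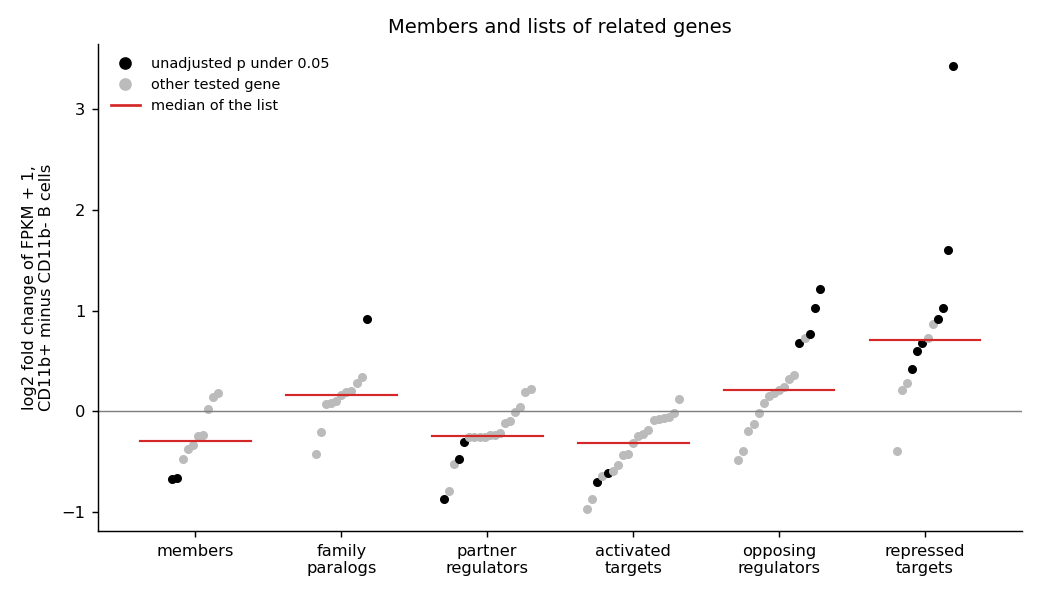
Log2 fold change of FPKM + 1, CD11b+ minus CD11b- B cells, for the 10 members and 5 lists of related genes, sorted within each list. Black points have an unadjusted limma p under 0.05, gray points do not, and red lines are medians. No point passed the adjusted threshold, the median lies below 0 for members, partner regulators and activated targets, and above 0 for the other lists, of which that of the paralogs falls to 8e-04 without replicate 3 of both groups.

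The means of all 10 factors were higher in both B cell groups than in PMs. In CD11b+ B cells 9 of 10 members were called higher by limma, where 21.5% of 22102 genes were called higher and 8.78% lower, and none was called lower. In CD11b- B cells all 10 were called higher, where 25.8% of 20985 genes were called higher and 11.0% lower. All 10 lay above the PM libraries without overlap in both groups, as did 34.3% and 36.1% of all genes. The 2 comparisons share the PM libraries. The balance of calls over all genes depended on the scaling: 4760 higher and 1940 lower became 2922 and 2566 with median-ratio scaling in CD11b+ cells, and 5404 and 2306 became 3411 and 3088 in CD11b- cells, with the median log2 fold change of all genes moving from 0.25 to 0.13 and from 0.24 to 0.07. The members called were unchanged by either this or quantile scaling, and the median log2 fold change over all 10 members was 2.62 in CD11b+ and 3.12 in CD11b- cells.

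The highest folds against PMs were those of Ebf1, Spib, Pax5, Ikzf3 and Bach2, of which all but Spib were the lowest members in PMs. Ebf1 had 0.279, 0.411 and 0.295 FPKM in the PM libraries, from 49, 117 and 58 reads, and its mean was 88.1-fold higher in CD11b+ and 128-fold higher in CD11b- B cells (log2 fold change 4.49 ± 0.23 and 4.96 ± 0.27, SE; limma adjusted p = 5.17e-06 and 9.03e-06). Pax5 had 1.14, 0.217 and 0.252 FPKM in PMs and was 71.1-fold and 63.9-fold higher (4.70 ± 0.30 and 4.57 ± 0.28, SE; limma adjusted p = 1.84e-05 and 1.6e-05). Ikzf3 had 2.09, 0.231 and 0.209 FPKM in PMs and was 43.8-fold and 43.0-fold higher (4.51 ± 0.38 and 4.48 ± 0.38, SE). For both Pax5 and Ikzf3 the first PM library was the highest, and without it Pax5 was 163-fold and 146-fold and Ikzf3 168-fold and 165-fold higher in CD11b+ and CD11b- B cells, above Ebf1 (82.0-fold and 119-fold). Spib, although present in PMs at 8.09, 6.36 and 2.42 FPKM, was 86.1-fold and 138-fold higher (6.31 ± 0.35 and 6.98 ± 0.35, SE; limma adjusted p = 8.21e-06 and 6.19e-06). Bach2 had 1.34, 0.537 and 1.17 FPKM in PMs and was 12.2-fold and 17.4-fold higher (2.71 ± 0.33 and 3.04 ± 0.45, SE; limma adjusted p = 0.000637 and 0.00159). Without CD11b- replicate 3, its highest library, Bach2 was 10.3-fold higher in CD11b- cells (limma adjusted p = 0.00336).

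The other 5 members had smaller folds against PMs. Tcf3 had 15.4, 12.4 and 10.1 FPKM in PMs and was 6.12-fold higher in CD11b+ and 9.92-fold higher in CD11b- B cells. Ikzf1, which is used throughout blood cells, had 24.8, 13.9 and 14.3 FPKM in PMs and was 3.0-fold and 3.55-fold higher. Foxo1 had 6.74, 4.31 and 4.59 FPKM in PMs and was 3.79-fold and 4.54-fold higher. All of these passed the test, with limma adjusted p from 6.51e-05 to 0.00203. Pou2f2 had 9.43, 5.26 and 4.08 FPKM in PMs and was 3.36-fold and 2.88-fold higher (limma adjusted p = 0.00727 and 0.00668). Bcl6, which also acts in macrophages, had 5.93, 1.51 and 1.75 FPKM in PMs and was 2.47-fold and 3.30-fold higher (log2 fold change 1.23 ± 0.41 and 1.61 ± 0.40, SE; limma adjusted p = 0.0570 and 0.0167). Without the first PM library Bcl6 was 4.64-fold and 6.19-fold higher, its limma adjusted p in CD11b+ cells was 0.00316, and in CD11b- cells it rose to between 0.0512 and 0.0737 when any other library was left out.

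The first PM library was the highest of the 3 for 9 of 10 members and for 6 of 10 B cell markers. Set against the mean of the 6 B cell libraries, Pax5 stood at 3.15%, 0.598% and 0.696% in PM replicates 1, 2 and 3, Ikzf3 at 5.71%, 0.630% and 0.572%, and Bcl6 at 67.1%, 17.1% and 19.8%. Blk, a B cell kinase, stood at 9.10%, 2.96% and 1.91%. Ebf1 was lowest in the first library, at 0.788%, 1.2% and 0.832%. So was Cd74, the invariant chain, at 6.89%, 16.8% and 14.4%, while Ms4a1 (CD20), Cd37 and Fcmr lay between the other libraries, Cd37 at 24.3%, 27.5% and 23.7%. The part of B cells or their RNA in these values was not tested.

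**Figure D5:**
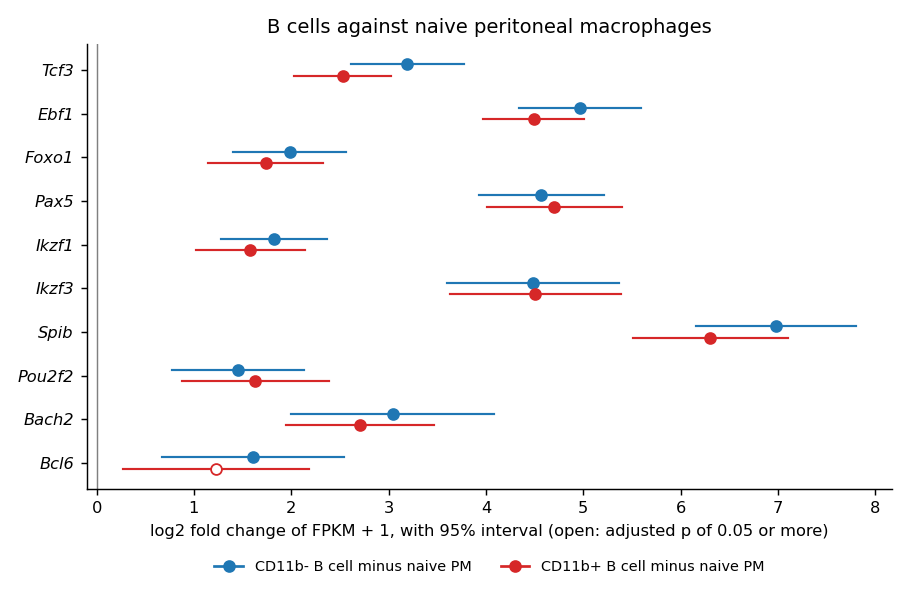
Log2 fold change of FPKM + 1 of each member in CD11b- (blue) and CD11b+ (red) B cells against the same 3 PM libraries, with 95% intervals. Filled points have a limma adjusted p under 0.05, and the open point is Bcl6 in CD11b+ cells. Spib has the highest value in both groups, and Ebf1, Pax5 and Ikzf3 lie between 4.48 and 4.96.

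The lists of related genes were also set against PMs. Genes said to rise or fall are those called by limma. Over all genes, it called 21.5% higher and 8.78% lower in CD11b+ cells, and 25.8% and 11.0% in CD11b- cells. Of 18 partner regulators, 14 rose in CD11b+ and 15 in CD11b- B cells, and Klf2, a factor of quiescent lymphocytes and of macrophages, fell in both. Pou2af1, the coactivator of Oct2, had 1.28 to 4.64 FPKM in PMs, 191 to 246 in CD11b- and 160 to 211 in CD11b+ B cells (log2 fold change 5.62 ± 0.32 in CD11b+ cells, SE; limma adjusted p = 1.06e-05). Of 19 activated targets, 13 rose in each B cell group, Cd79a and Cd72 among them, and Bst1 fell (33.6 to 49.0 FPKM in PMs). Of the opposing regulators, 10 of 20 fell and 4 rose in CD11b+ B cells, and 11 of 16 fell and 3 rose in CD11b- B cells. In both groups, falls in this list were more frequent than over all genes, and rises were not. Cebpa, Cebpb and Maf, factors of myeloid cells, fell in both, while Id3, an inhibitor of E proteins, rose from 14.9 to 20.3 FPKM in PMs to 181 to 188 in CD11b- and 123 to 187 in CD11b+ B cells. Repressed targets were divided: 4 fell and 4 rose of 12 in CD11b+ cells, and 5 fell and 3 rose in CD11b- cells, with Csf1r, Notch1, Ccr2 and Emb lower and Ly6a, Grap2 and Jchain higher in both. Falls in this list were more frequent than over all genes in both groups. Rises in CD11b- cells were about as frequent as over all genes. Prdm1 (Blimp-1), the factor of plasma cells, was called higher than in PMs in CD11b+ cells (1.41 to 2.21 against 0.0199 to 0.258 FPKM; limma adjusted p = 0.00813) and not in CD11b- cells (0.0859 to 1.99 FPKM; limma adjusted p = 0.315), and this difference was itself not past the threshold between the B cell groups (limma adjusted p = 0.687).

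Among the paralogs, limma called the same 6 of 13 tested in both B cell groups against PMs, with Tcf4, Tcf12, Spic and Pou2f1 higher in B cells. Over all genes, it called 21.5% higher and 8.78% lower in CD11b+ cells, and 25.8% and 11.0% in CD11b- cells. The tests on the reads differed for some of the paralogs. Tcf4 in CD11b- cells was called by neither edgeR with its filter (adjusted p = 0.106) nor DESeq2 (0.128), and Tcf12 in CD11b+ cells was not called by edgeR (adjusted p = 0.0577). Foxo3, a relative of Foxo1, was called lower in both B cell groups by edgeR (adjusted p = 0.0451 in CD11b+ and 0.0180 in CD11b- cells) and by DESeq2 (0.0149 and 0.00106), but not by limma (0.347 and 0.215). Spi1 (PU.1), the relative of Spib that leads myeloid development, was lower, with 69.6 to 132 FPKM in PMs, 40.2 to 51.1 in CD11b- and 32.7 to 42.2 in CD11b+ B cells. Bach1, the broadly expressed relative of Bach2, was lower too, with 8.47 to 18.9 FPKM in PMs, 0.949 to 1.52 in CD11b- and 0.674 to 2.48 in CD11b+ B cells. The pairs Spib and Spi1, and Bach2 and Bach1, thus lay in opposite order in the PMs and in the B cells, per length of exon.

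Genes whose pattern was most like that of a member were ranked by the root mean square difference of log2(FPKM + 1), centred on each gene's own mean over the 9 libraries, among 12493 genes with a mean of at least 1 FPKM. Most of this pattern is the step between PMs and B cells. Pax5 and Ikzf3 shared their nearest gene, Bend5 (differences of 0.202 and 0.160), and Gm42870 among their nearest 3. Spib had the most distant neighbours, Ly6d, a surface marker of B cell progenitors, at 0.334, Igkv9-120 at 0.342 and Cd79a, a chain of the B cell receptor, at 0.351. Ebf1 was nearest to Emid1 (0.179), Tcf3 to Pik3ap1 (0.215), an adaptor of B cell receptor signaling also called BCAP, Ikzf1 to Rcsd1 (0.123), Foxo1 to Gm47992 (0.0891), Bach2 to Cecr2 (0.210), Bcl6 to Gm28609 (0.154) and Pou2f2 to Acot2 (0.138). Among the members themselves the closest pairs were Foxo1 and Ikzf1 (0.264), Ikzf1 and Bcl6 (0.267) and Pax5 and Ikzf3 (0.282).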

How the data were processed

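RNA-seq libraries were made with a SMART-seq HT kit, and sequenced and mapped, by a service company (DNAFORM). After trimming, STAR placed the read pairs on GRCm38 and featureCounts assigned them to genes. The deposited FPKM values are these counts scaled by exon length and by all reads on genes. A second deposited table holds, as a normalized signal, counts of 11063 genes divided by size factors, with clusters from the authors' own comparison, which were not used. Here, FPKM times exon length gave whole reads (within 0.05 read) for all values, and these reads equalled those of the second table. Each count of reads comes from amplified cDNA without molecular identifiers and covers counting error only.

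limma 3.58.1 (lmFit and eBayes with trend, two-sided, R 4.3.3) was applied to log2(FPKM + 1) in the 6 libraries of a comparison, where mean FPKM reached 0.05, with Benjamini-Hochberg adjustment over all genes tested and a threshold of 0.05. Fold changes on this scale understate those of low genes. Exact two-sided permutation tests compared mean FPKM. edgeR 4.0.16 and DESeq2 1.42.0 on the reads were alternatives. Scripts were first tested on simulated data. The members and lists were chosen with earlier results of these data known. Named were all members, list genes past the threshold or else the 2 with the largest change between B cell groups, the 3 genes nearest to each member in pattern, and other list genes chosen after their values were seen. Of the table's identifiers, 52046 are in GENCODE M21, but 1462 have the same start, so positions are those of M21 by identifier. Promoters are RefSeq's. Results of some genes that this rule would name are not reported here.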

Additional observations from a re-analysis of the deposited data

How the results depend on the processing

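Between CD11b+ and CD11b- B cells, the count of members called lower was 0 by limma in every setting, 2 by edgeR without a filter on low counts (Tcf3 and Spib) and 1 by DESeq2 (Spib). Leaving out each library in turn, or replicate 3 of both groups, kept it at 0. The direction of 5 small log2 fold changes turned. Ikzf3 was -0.0063 by edgeR without a filter and Ikzf1 was 0.0035 after scaling to B cell markers. With libraries left out, Ikzf3 ran from -0.0417 (without CD11b+ replicate 1) through -0.0301 (without CD11b- replicate 3) to 0.0894, Bach2 from -0.6202 to 0.1722 (without CD11b- replicate 3), Pax5 from -0.0195 (without CD11b+ replicate 3) to 0.2397, and Pou2f2 from -0.0382 (without CD11b+ replicate 3) to 0.3508. Over all genes, calls in this comparison went from 15 higher and 0 lower to 42 and 0 with edgeR, 416 and 155 without its filter, 328 and 64 with DESeq2, 2 and 0 without a filter on FPKM, 31 and 0 at a mean FPKM of at least 1, 34 and 3 with a pseudocount of 0.1, 23 and 2 with one of 0.01, 31 and 4 with all 9 libraries in one fit, 9 and 0 with quantile normalization, and 35 and 0 after scaling to B cell markers. Higher calls numbered 3, 4 and 7 without CD11b- replicates 1, 2 and 3, 5, 5 and 40 without CD11b+ replicates 1, 2 and 3, and 29 without replicate 3 of both, with 0 lower in each. The median of all genes was 0.27 by edgeR without a filter. The causes were not tested.

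Against PMs, 9 to 10 members were called higher in either B cell group over all alternatives and when libraries were left out, and none lower. All changes concerned Bcl6, which passed the threshold in CD11b+ cells under 4 alternatives and lost it in CD11b- cells under 6, with adjusted p of up to 0.0737.

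Replicate numbers in the titles were shared, but same-numbered CD11b+ and CD11b- libraries did not all deviate together (correlations of 0.203, -0.0115 and 0.167), so the title numbers were not taken to pair samples. The pairs at 0.203 and 0.167 also share a description number, and the pair at -0.0115 does not. Those 2 correlations were the highest between libraries of the B cell groups. Whether description numbers mark pairs is not stated, and the main test was unpaired. With a replicate block by title number, 0 members and 16 genes were called between the B cell groups, and 9 and 10 members against PMs. A block by the description numbers, with 2 shared pairs, called 0 genes.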
